A study of Rattus norvegicus with 21 samples.

Results

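The comparison of hippocampus with cortex in unexposed rats was made on 8 of the 21 libraries of the series, the 4 titled as control hippocampus and the 4 titled as control cortex. It covered the 15015 of 30560 Ensembl rat gene IDs whose normalized read count averaged at least 10 over these 8 libraries. The mean was 10.0 for the last gene inside this limit and 9.99 for the first gene outside it. The control rats were wild-type male SD rats, 4 weeks old at the start and given 2 weeks to acclimate, and they stayed at normal oxygen without treatment. Poly(A)-selected RNA of each tissue was sequenced. The rest of the series comes from rats exposed repeatedly to hypobaric hypoxia, the thin air of simulated high altitude. These exposed rats were sampled at 24 h and at 48 h once exposure had ended, with 3 libraries per tissue and time, and the 12 libraries serve here as a separate reading of the tissue difference. The title and the tissue label of 1 more library disagree, and it was left aside. The labels count 4 control rats in all, so both tissues came from the same animals, but whether libraries of equal number share a rat is not stated.

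The hippocampus is an older and simpler kind of cortex, built from the granule cells of the dentate gyrus and the pyramidal cells of the CA fields, and it is known for its part in forming new memories. The cerebral cortex is layered, with projection neurons of different targets in each layer. Both hold the same broad classes of neurons, glia and vessel cells, and regional identity shows in a minority of genes. The table gives gene IDs without names and none of the IDs could be matched to a symbol, so genes are described by group and by 4 example IDs. For the same reason no marker gene of either tissue, or of a neighbouring tissue or cell type, was read, and the tissue labels were not checked against markers. In whole tissue, fewer cells of a type and less RNA per cell cannot be told apart.

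Several control libraries stood apart. Hippocampus control 1 held 4654096 reads in genes, against 13099884 to 19304803 in the other 7, so that 1 read in it was worth a normalized count of 4.32. Of the tested genes 921 had no read in this library, against 40 to 70 in each of the others. The values per gene also spread more in hippocampus than in cortex, with a median SD of 0.64 and 0.313 on the log2 scale (n = 4 each). The hippocampus value was 0.287 without control 1 and 0.619 to 0.717 without one of the others. The cortex value was 0.198 without control 3 and 0.311 to 0.329 without one of the others. Hippocampus control 2 and cortex control 3 lay between the tissues, as described further on.

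In control rats 94 of 15015 genes (0.626%) differed between the tissues in limma at an adjusted p under 0.05. Of these, 72 (0.480%) were higher in hippocampus, and cortex was the higher tissue for 22 (0.147%). The differences were large. The 72 genes had a median log2 difference of 2.08 (range 1.3 to 3.25), and the 22 genes had a median of -2.05 with absolute values from 1.39 to 3.14. Over all tested genes the median was -0.02, and the middle of the distribution, from the 25th to the 75th percentile, ran from -0.39 to 0.37. Adjusted p-values of the 94 genes lay between 0.0163 and 0.0499, so all 94 calls of this limma fit were made close to the threshold. The fit took the 8 libraries as independent, although they came from 4 rats. With equal replicate numbers taken as pairs, limma called 0 genes (smallest adjusted p 0.098). Pairs also leave the fit fewer degrees of freedom, and what part that has in the lost calls was not tested. Without pairs, an unadjusted p under 0.05 was reached by 1668 genes, 775 with the larger value in hippocampus and 893 in cortex, against 751 expected with no difference.

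**Figure D1:**
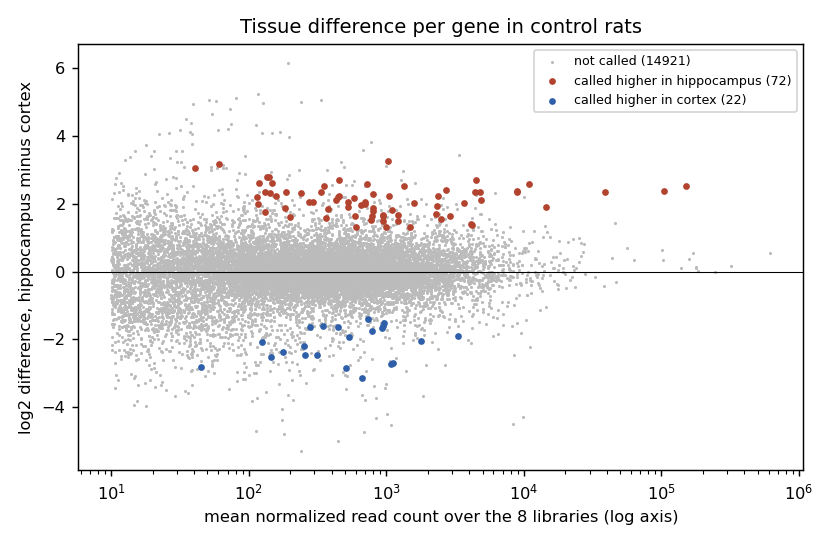
Each point is 1 of 15015 genes, with its mean normalized read count over the 8 control libraries on a log axis and its log2 difference of hippocampus minus cortex. The 72 genes called higher in hippocampus reach further up in level than the 22 called higher in cortex, and many larger differences at low level were not called.

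The gene with the largest called difference towards hippocampus was ENSRNOG00000031927, with normalized read counts of 3897, 822, 954 and 1925 in hippocampus controls 1 to 4. In cortex controls 1 to 4 it had 129.6, 185, 237 and 123. The lowest hippocampus library thus lay above the highest cortex library, while control 1 lay far above the other hippocampus libraries. The means were 1899.5 ± 1419.4 (SD, n = 4) and 168.5 ± 53.3 (SD, n = 4), a log2 difference of 3.25 (SE 0.49, limma adjusted p = 0.0249). Next came ENSRNOG00000013793, a gene of low level, with 233, 85.1, 50.0 and 79.0 in hippocampus and 10.6, 11.1, 13.7 and 4.99 in cortex. It had 54 reads in hippocampus control 1 and 5 reads in cortex control 4, and its log2 difference was 3.18 (SE 0.54, limma adjusted p = 0.0436). All log2 values here were taken after adding 1 to the normalized count, so genes at low level differ by more than they show.

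Towards cortex, the gene with the largest called difference was ENSRNOG00000010617. Its values were 86.3, 209, 113 and 144 in hippocampus controls 1 to 4 and 834, 1407, 1307 and 1196 in cortex controls 1 to 4. The highest hippocampus value, in control 2, lay far under the lowest cortex value, in control 1. The means were 138 ± 52.9 (SD, n = 4) and 1186 ± 249.9 (SD, n = 4), a log2 difference of -3.14 (SE 0.31, limma adjusted p = 0.0177). ENSRNOG00000013171 had 125, 106, 156 and 87.2 in hippocampus and 966, 1128, 1153 and 378 in cortex, a log2 difference of -2.83 (SE 0.39, limma adjusted p = 0.0177). Its cortex control 4 lay well under the other 3 cortex libraries and still above all hippocampus libraries. All 4 IDs were picked among called genes whose libraries did not overlap between the tissues, so their separation is no further support. With equal replicate numbers taken as pairs none of the 4 was called (limma adjusted p 0.098 to 0.126). Pairs leave the fit fewer degrees of freedom, and the log2 differences did not change. With pairs the SE was 0.529 and 0.57 for the 2 IDs higher in hippocampus, against 0.487 and 0.544. For the 2 higher in cortex it was 0.27 and 0.31, against 0.311 and 0.386. Each of the 4 lost its call in 4 or more of the 8 fits without 1 library.

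**Figure D2:**
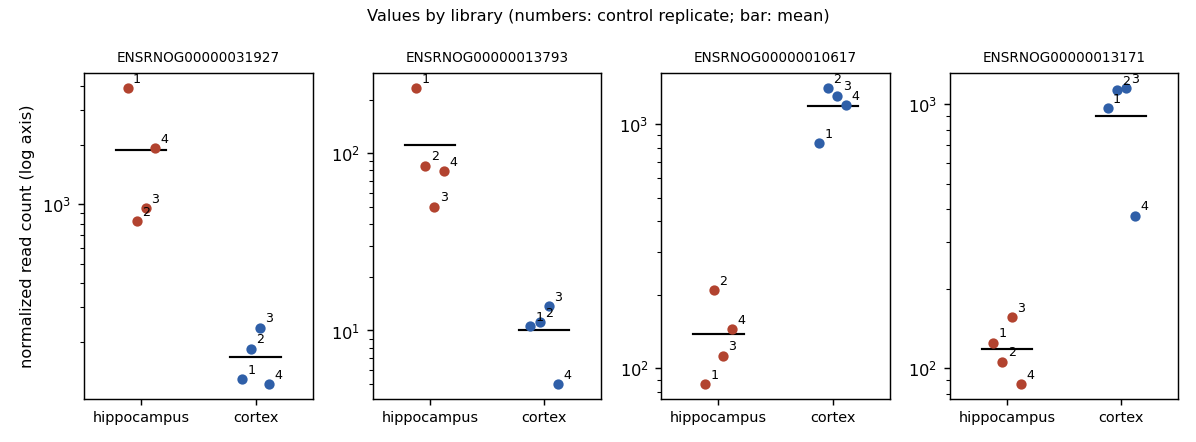
Normalized read counts (log axis) of the 4 IDs in each control library, with the replicate number beside each point and a bar at the mean of 4 libraries. Hippocampus and cortex do not overlap for any of the 4, and hippocampus control 1 is the highest point of both IDs with the larger value in hippocampus.

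The 72 genes higher in hippocampus were mostly well expressed, but the share of genes called rose with level, as given further on. Their level is therefore given as a description. Means over the 8 libraries ran from 40.6 to 151784 with a median of 778. Of all 15015 tested genes 2754 had a mean of at least 1000, as had 28 of these 72. The median of their mean counts was 1207 in hippocampus and 313 in cortex. Together they took 3.86%, 4.15%, 4.4% and 6.22% of the reads of hippocampus controls 1 to 4. In cortex controls 1 to 4 they took 1.3%, 0.945%, 0.978% and 0.991%. Much of this came from 5 genes with a mean of at least 10000. Without these 5 the shares were 0.909% to 1.26% in hippocampus and 0.257% to 0.318% in cortex. The most abundant of the 5 had 352186, 186841, 197985 and 298925 normalized counts in hippocampus and 63044, 40979, 33337 and 40975 in cortex.

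The 22 genes higher in cortex were less abundant, with means from 45.2 to 3317 and a median of 524. The medians of their mean counts were 195 in hippocampus and 875 in cortex. They took 0.0338%, 0.0556%, 0.0431% and 0.0404% of the reads of hippocampus controls 1 to 4, and 0.198%, 0.207%, 0.214% and 0.165% of those of cortex controls 1 to 4. The shares of both groups were chosen by the difference they show and are given as a description. All 94 genes had reads in each of the 8 libraries. Reads per gene in hippocampus control 1 had a median of 277 among the 72 genes and 46 among the 22. Under 10 reads there were found for 3 of the 94, all higher in cortex. This library took part in the fit that chose the 94, so they cannot show how its low depth bore on the calls. Of all tested genes, 853 lacked a read in hippocampus control 1 alone.

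Among the called genes the libraries did not share the extremes evenly. These genes were chosen by the same values, and such counts were not taken over all tested genes. Whether the pattern is particular to the called genes was therefore not tested. Among the 72 genes higher in hippocampus, controls 4 and 1 were the highest hippocampus library for 37 and 29 genes, control 3 for 5 and control 2 for 1. The lowest was control 2 for 27 genes, control 3 for 24, control 1 for 20 and control 4 for 1. Among the 22 genes higher in cortex, the hippocampus library with the most expression was control 2 for 11 genes, control 3 for 6, control 1 for 4 and control 4 for 1.

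Large mean differences were much more common than calls. At least 2-fold between the tissues lay 2414 genes (16.1%), and all 94 called genes were among them. At least 4-fold lay 496 genes (3.3%), 201 with the larger value in hippocampus, of which 44 were called, and 295 with the larger value in cortex, of which 12 were called. Of the 119 genes at least 8-fold apart, 4 were called. The 4 hippocampus and 4 cortex libraries were fully separated for 1295 genes (8.62%), 642 (4.28%) with hippocampus above and 653 (4.35%) with hippocampus below. These included all 94 called genes, and 1201 of them were not called.

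How precisely a gene was measured followed its level. For the 2589 genes with a mean of 10 to 50 the median 95% interval reached 1.67 to either side of the log2 difference, and 2 of these genes (0.0772%) were called. From 50 to 200 it reached 0.932, and 17 of 3636 genes (0.468%) were called. From 200 to 1000 it reached 0.723, and of 6036 genes (0.712% called) 14 were higher in cortex and 29 in hippocampus. At 1000 or more it reached 0.733, and 32 of 2754 genes (1.16%) were called, 28 higher in hippocampus and 4 in cortex. Over all genes the interval lay within a 2-fold difference in either direction for 32.1% and within a 4-fold difference for 74.9%. For the other genes the interval held differences larger than that in at least 1 direction. Presence in 1 tissue alone was rare among the tested genes. Only 6 had no read in any of the 4 cortex libraries and 5 had none in any of the 4 hippocampus libraries, while 13979 (93.1%) had reads in all 8.

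Which genes passed depended on single libraries. In limma fits without 1 library, 301 genes (2.00%) were called without hippocampus control 1 and 347 (2.31%) without hippocampus control 2. The fit without cortex control 3 called 117 (0.779%), of which 65 were among the 94. Without cortex controls 1 and 4 the fits called 5 (0.0333%) and 1 (0.00666%). Without cortex control 2, hippocampus control 3 or hippocampus control 4 they called 0, with 1089, 1286 and 1309 genes at an unadjusted p under 0.05. The fit without hippocampus control 1 called all of the 94 genes again, and that without hippocampus control 2 called 92 of them. The balance of directions moved too. Genes higher in hippocampus made up 76.6% of calls with all 8 libraries, 74.1% without hippocampus control 1, 49.3% without hippocampus control 2 and 52.1% without cortex control 3. The directions were thus nearly even when only 1 of the 2 libraries that lie between the tissues was left out.

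**Figure D3:**
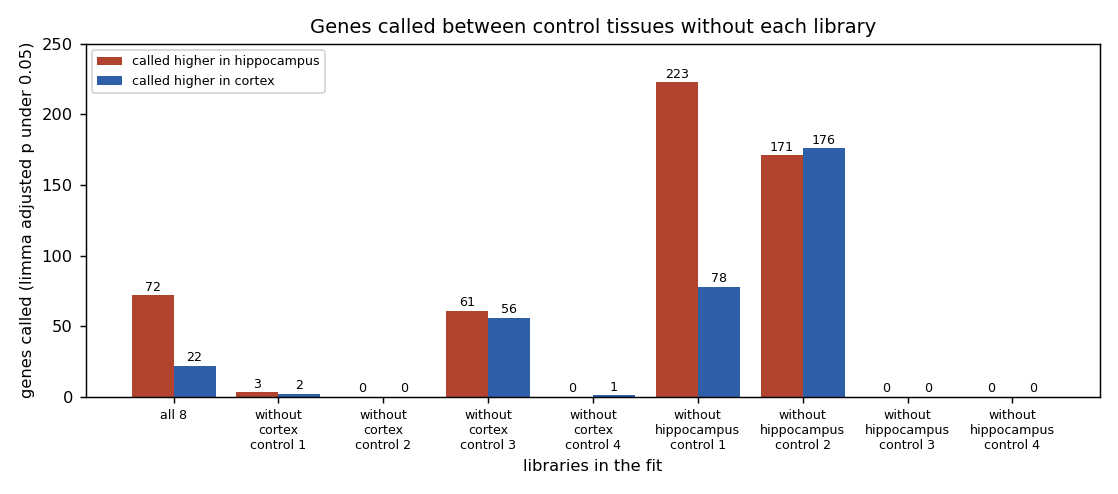
Number of genes called by limma between the control tissues, higher in hippocampus and higher in cortex, with all 8 libraries and without each in turn. The counts run from 0 without cortex control 2, hippocampus control 3 or hippocampus control 4 to 347 without hippocampus control 2.

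Without pairs or library weights, other pseudocounts, filters, scalings and variance models in limma called from 65 genes (0.433%, no intensity trend) to 120 (0.799%, quantile normalization). The share was 0.317% of 22089 genes without a filter and 0.805% of the 12426 genes averaging 50 or more. edgeR called 83 (0.559%), while DESeq2 called 787 (5.01%) and limma with a weight per library called 3195 (21.3%). Genes higher in hippocampus made up 81.9%, 58.2% and 45.8% of these calls. The library weights were set from the same values, with less weight for libraries that vary more, so 3195 is no independent count. A limma fit of all 20 grouped libraries called more, and 438 genes (2.92%) passed, 250 higher in hippocampus and 188 in cortex, with 90 of the 94 among them. That fit takes part of its spread from the exposed groups. Leaving out hippocampus control 2 and cortex control 3 together gave 640 calls (4.26%), 34.4% of them higher in hippocampus. Leaving out hippocampus control 1 as well gave 3370 calls (22.4%), 1534 higher in hippocampus and 1836 higher in cortex, and all of the 94 were among these. That fit rests on 2 hippocampus and 3 cortex libraries. Hippocampus control 2 and cortex control 3 were left out for where they lie between the tissues, so both larger numbers are partly made by the choice and are no independent count.

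To place each library on a scale that the control rats did not set, 383 genes were taken that differed at least 4-fold between the tissue medians of the exposed rats and whose higher tissue had a median of 100 or more. On this scale the median cortex of exposed rats is 0 and their median hippocampus is 1. The exposed rats also held 2 libraries between the tissues, hippocampus 24 h replicate 2 at 0.619 and cortex 24 h replicate 3 at 0.258. Their other libraries lay at -0.0747 to 0.0791 and 0.951 to 1.19. The exposed libraries set this scale themselves, so their nearness to 0 and 1 is partly built in. Cortex controls 1, 2 and 4 lay at 0.0371, -0.0349 and 0.0682, and hippocampus controls 1, 3 and 4 at 0.864, 0.983 and 1.06. Hippocampus control 2 lay at 0.367 and cortex control 3 at 0.328, so these 2 libraries with different tissue labels nearly met. On a scale set without the 2 exposed libraries, from 507 genes, they lay at 0.366 and 0.39.

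Genes of each direction placed the 2 libraries differently. From the 220 genes high in the cortex of exposed rats, hippocampus control 2 lay at 0.265, and 153 of these genes (69.5%) had a value nearer cortex than hippocampus. From the 163 genes high in hippocampus it lay at 0.772, with quartiles at 0.0694 and 1.0, and 63 genes (38.7%) were nearer cortex. Cortex control 3 lay at 0.566 from the genes high in cortex, of which 126 (57.3%) were nearer hippocampus. From the genes high in hippocampus it lay at 0.14, close to the 0.137 to 0.22 of the other cortex libraries, with 33 genes (20.2%) nearer hippocampus. Cortex control 3 thus stood off by its cortex-high genes, while the median of its hippocampus-high genes lay where those of the other cortex libraries did. In those, 1 to 6 of the 163 genes were nearer hippocampus. Of the 220 cortex-high genes, 75 stood off in both libraries, 78 in hippocampus control 2 alone, 51 in cortex control 3 alone and 16 in neither. Most of the 220 stood off in each library, so the 75 in both are no sign of a shared set. In hippocampus control 1 the cortex-high genes lay at 0.769 and the hippocampus-high genes at 0.99. What part these positions have in the counts of called genes was not tested beyond the fits without these libraries.

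**Figure D4:**
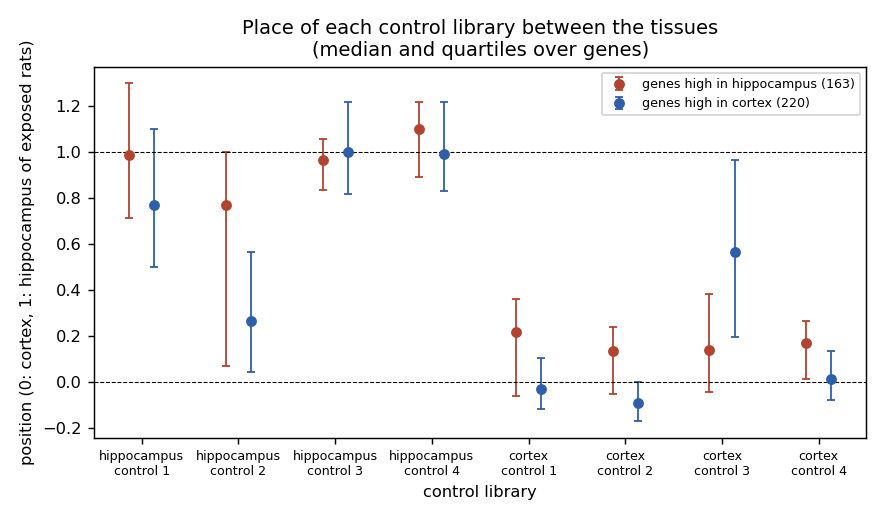
Median (points) and quartiles (bars) of the position of each control library over the 163 hippocampus-high and the 220 cortex-high genes, on a scale with exposed cortex at 0 and exposed hippocampus at 1. Hippocampus control 2 and cortex control 3 lie between the tissues mainly by the genes high in cortex, at 0.265 and 0.566.

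The 12 libraries of exposed rats gave a reading of the same genes in other animals. There 3874 of the 15015 genes (25.8%) differed between hippocampus and cortex in limma, averaged over 24 h and 48 h. Of these, 1957 (13%) were higher in hippocampus and 1917 (12.8%) higher in cortex. This fit too took its libraries as independent. Whether exposed libraries of equal number share a rat is not stated, and no fit with pairs was run for them. Of the 94 genes called in control rats, 94 had the same sign in exposed rats and 89 (94.7%) were called there in the same direction. All 72 genes higher in hippocampus were called again, with a median log2 difference of 2.31 in exposed and 2.08 in control rats. Of the 22 genes higher in cortex 17 were called again, and the median of the 22 was -1.54 in exposed and -2.05 in control rats. Both sets were chosen by their values in control rats, so their medians in control and exposed rats are not on equal terms. The 4 example IDs had log2 differences of 3.27, 3.61, -2.74 and -1.45 in exposed rats, in the order given above, with limma adjusted p-values of 0.00393, 0.000696, 0.00138 and 0.0112. For ENSRNOG00000013171 the exposed hippocampus ran from 104 to 425 and the exposed cortex from 299.9 to 891, so the tissues overlapped there.

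Read the other way, the genes called in exposed rats kept their direction in most cases in control rats. Of the 1957 genes higher in hippocampus of exposed rats, 1743 (89.1%) had the larger mean log2 value in control hippocampus. All 4 control hippocampus libraries lay above all 4 cortex libraries for 442 of them (22.6%), against 4.28% of all tested genes. Of the 1917 genes higher in cortex, 1738 (90.7%) had the larger mean log2 value in control cortex. The control libraries were fully separated in that direction for 289 (15.1%), against 4.35% of all. Over all tested genes the median log2 difference in control rats was -0.02. None of the 3874 had its control libraries fully separated in the opposite direction. For the 1957 genes the median library value, set against the median of control cortex, was higher by 0.62, 0.34, 0.72 and 0.87 on the log2 scale in hippocampus controls 1 to 4. For the 1917 genes it was -1.04, -0.29, -0.84 and -0.83. All 4 hippocampus libraries lay on their tissue's side in both groups, and control 2 lay closest to cortex in both. Set against the median of control hippocampus, cortex controls 1 to 4 lay at 0.75, 0.87, 0.24 and 0.74 for the genes higher in cortex, and control 3 was the closest to hippocampus.

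**Figure D5:**
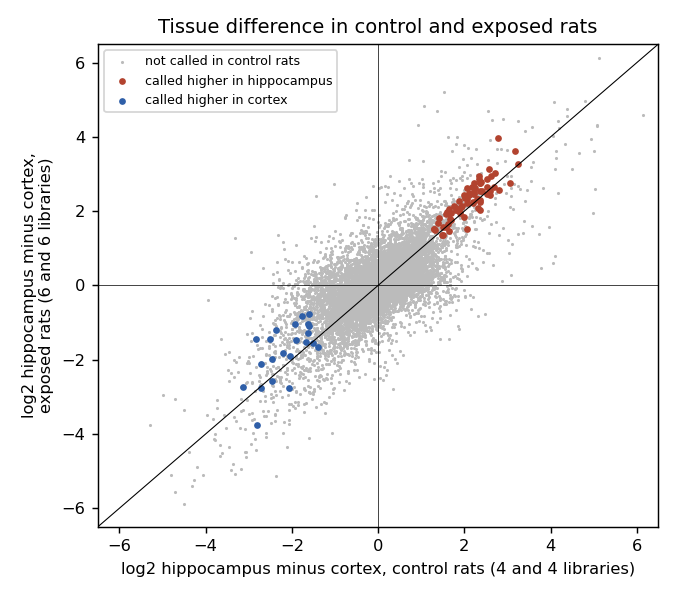
Log2 difference of hippocampus minus cortex per gene in control rats (horizontal) and exposed rats (vertical), with the line of equal values. All 94 genes called in control rats lie on the same side of 0 in both. The 22 called higher in cortex, which were chosen by their values in control rats, have a median of -1.54 in exposed and -2.05 in control rats.

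Across the 15015 genes, which are not independent replicates, the tissue differences of control and exposed rats correlated at r = 0.707, and 71.4% of genes had the same sign. The 2 readings share no library. They do share the size factors, which were set over all libraries together. A test of the difference between control and exposed rats in the tissue difference itself, over all 20 grouped libraries, called 0 genes in limma. An unadjusted p under 0.05 was reached by 318 genes, against 751 expected with no difference, and the smallest adjusted p was 0.922. The fit uses the same spread per gene for all groups, although control hippocampus varied more than control cortex. Its 0 calls therefore do not show that control and exposed rats are alike. edgeR called 0 of 15934, with 841 at an unadjusted p under 0.05. Of the 94 genes, 4 had an unadjusted p under 0.05 in the limma test, 1 higher in hippocampus and 3 higher in cortex. ENSRNOG00000013171 was one of these, where the log2 difference in control rats minus that in exposed rats was -1.38 (unadjusted p = 0.0213, limma adjusted p = 0.922). The shares of 25.8% called in exposed and 0.626% in control rats come from 12 and 8 libraries and are no test of a difference between them.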

How the data were processed

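RNA was extracted with TRIzol and made into stranded mRNA libraries, per the labels' protocols. Per the submitters' processing notes, the tools included featureCounts 2.0.1 (Subread), HISAT2 2.1.0 and fastp 0.20.0. Not given in the sources used here are the genome build, the annotation and the count filter. The authors deposited a signal per gene and library, read counts divided by 1 size factor each. All values (100%) lay within 0.001 of a whole read in all 21 columns, so reads were recovered. All columns matched a sample by title.

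In R 4.3.3, limma 3.58.1 tested log2 of the deposited value plus 1 (intensity trend, two-sided, Benjamini-Hochberg over all 15015 genes, threshold 0.05). The control fit held the 8 control libraries alone. The exposed fit held 12 libraries with 4 group means. The test of control against exposed rats held 20 with 6 group means. On recovered reads, edgeR 4.0.16 called 83 of 14847 genes between the control tissues, and DESeq2 1.42.0 called 787. No 2 control libraries of a tissue were alike within sampling noise (chi-square over its degrees of freedom was 23.4 to 284 for 12 pairs), so each counted as 1 replicate. The control libraries of a tissue are separate rats per the labels. The limma fit was also run on simulated counts as a check of the code. These had independent libraries and the same dispersion per gene in both tissues. They therefore do not show how the fit performs on the control libraries.

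The reference table of 47357 rat genes holds an Ensembl ID for 0 of them, so no ID was named, the 27 gene lists could not be applied, and no sequence or position is given. The rule for example IDs took, per direction, the 2 called genes with the largest difference, a mean of at least 50 in the higher tissue and no overlap. The members and lists were chosen with earlier results of these data known.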

Additional observations from a re-analysis of the deposited data

Results flagged for a closer look

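Each of 9 measures was looked at in both groups of 4 control libraries for 1 library far from the other 3. Of these 18 looks 4 stood out, and chance alone flags about 1 in 20. The measures overlap, so they are not independent. Hippocampus control 1 lay far below the other hippocampus controls in reads in genes (4654096) and in genes with reads (15134), and far above them in tested genes without a read (921). Cortex control 3 lay far above the other cortex controls in genes with reads (19688). It also had the most reads of the 8, 19304803. The part of depth in the results was not tested beyond the fits without each library.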

How the results depend on the processing

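The count of 94 genes called between the control tissues was 65 to 120 under other pseudocounts, filters, scalings and variance models in limma, without a block or weights, and in edgeR (83), with 70.8% to 83.1% of calls higher in hippocampus. A fit of all 20 libraries gave 438, DESeq2 787 and library weights, set from the same values, 3195. Fits without 1 library gave 0 to 347. Without the 2 libraries between the tissues it was 640, and without these and hippocampus control 1 it was 3370, both chosen after seeing the data. With replicate numbers as a block limma called 0 genes (1493 at an unadjusted p under 0.05, smallest adjusted p 0.098). The block also leaves fewer degrees of freedom, and what part that has in the lost calls was not tested. Deviations of same-numbered libraries from their tissue means correlated at -0.0469 to 0.137, with 2 of 4 over 0.1. The best correlation was with their own number for 3 of 4 hippocampus and 2 of 4 cortex libraries. With only 4 libraries in each tissue, this check cannot decide whether equal numbers share a rat. The labels do not tie numbers to rats, so the main fit did not take the numbers as pairs. The cause of these shifts in the count of called genes was not tested. The exposed comparison (3874) gave 2870 to 4454 without 1 library, 4577 without its 2 libraries between the tissues (chosen after seeing the data) and 3738 to 4102 otherwise. The test of control against exposed rats called 0 in all 10 alternatives run in limma. These had 202 to 777 genes at an unadjusted p under 0.05, against 751 expected with no difference. The 0 calls do not show that control and exposed rats are alike. Positions moved by less than 1 SD with genes 2-fold apart or a scale without those 2 libraries. The SD is that of the 4 control libraries of a tissue and includes the library between the tissues, so this limit is wide. With genes 2-fold apart, hippocampus control 2 lay at 0.444 and cortex control 3 at 0.467, in the reverse order of the main scale. The 4 example IDs kept their direction in every alternative. Each lost its call under the block and in 4 or more of the 8 fits without 1 library, and ENSRNOG00000013793 also with no filter or a mean of at least 50. Of the tested genes, 853 lacked a read in hippocampus control 1 alone.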
